A study of Mus musculus with 6 samples.

Results

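The 38 genes described here encode the nuclear receptors of mouse liver, apart from PPAR-alpha, LXR, FXR, CAR and REV-ERB, together with the transcription factors that define hepatocytes. They were taken from the deposited gene table by name, and the list was chosen with earlier results of these data known. All 38 were found among the 41838 genes of that table. RNA sequencing covered the livers of 3 Alkbh5flox/flox mice, called flox below, and 3 Alkbh5-HKO mice, called HKO below. The flox mice carry the floxed gene and served as the control, and Alkbh5 was the targeted gene in the HKO mice, whose sample titles read Alkbh5-CKO. ALKBH5 is an RNA demethylase that acts on N6-methyladenosine. All mice received normal chow, for 9 weeks in the extraction protocol, while the series text gives 9 weeks as their age. The sources used here do not give the Cre driver, the meaning of HKO and CKO, sex, feeding state or hour of collection. The labels describe 3 independent biological replicates per group.

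Nuclear receptors are transcription factors whose activity is set by small molecules such as steroids, retinoids, thyroid hormone, fatty acids and foreign compounds. Many of them bind DNA as a pair with a retinoid X receptor, and they pass from repression to activation by exchanging corepressors for coactivators. In hepatocytes they work alongside HNF4A and factors of the FOXA, C/EBP and ONECUT families, which bind each other's genes as well as the genes of plasma proteins and metabolic enzymes.

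The target of the deletion separated the groups. Alkbh5 measured 17.8, 16.8 and 14.8 FPKM (read pairs scaled by gene length and library size) in flox libraries 1 to 3 and 0.508, 0.443 and 0.476 FPKM in HKO libraries 1 to 3. The HKO mean was 2.89% of the flox mean. The libraries held 14907384 to 17034754 reads each. All 10 hepatocyte markers examined were detected, and their summed level spanned 59027 to 71010 FPKM in flox and 65362 to 68409 FPKM in HKO. Markers of 2 blood cell types did not overlap between groups. The 7 red cell markers summed to 352 to 674 FPKM in flox and 105 to 209 FPKM in HKO, and Hbb-bt, a beta globin gene, passed as lower in HKO (limma BH adjusted p = 0.0373). The 8 T and NK cell markers summed to 3.45 to 6.21 FPKM in flox and 7.21 to 13.1 FPKM in HKO, and 0 passed. The part of these cells in the members' values was not tested. By median absolute log2 distance over all genes, flox library 3 and HKO library 1 lay farthest from the other libraries of their groups. HKO library 1 was the highest or lowest of the 6 libraries for 56.9% of all genes tested and for 57.6% of the members tested. By that measure flox library 3 did not differ from its group. Its shares were 31.4% and 30.3%, against 32.9% and 30.3% for flox library 1.

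No receptor or factor of the set passed the test between HKO and flox livers. Of the 38 members, 33 had a mean of at least 1 FPKM and were tested, and Nr4a1, Nr2f1, Rxrb, Ppard and Vdr lay under that level. The test was limma on log2(FPKM + 1) with Benjamini-Hochberg (BH) adjustment over 10453 genes and a threshold of 0.05, and 0 of 33 members passed it, against 51 genes or 0.488% of all genes tested, 28 of them higher in HKO (0.268%) and 23 lower (0.22%). With limma voom on the recovered reads 0 members passed as well. At an unadjusted limma p under 0.05 there were 8 members, or 24.2%, against 17% of all genes. Of these 8, Rarb and Nr2f2 had the higher mean in HKO, and Hnf4a, Nr1i2, Esrra, Cebpb, Cebpd and Onecut1 had the higher mean in flox. Over all genes 8.57% lay on the higher and 8.44% on the lower side. The 2 groups of libraries did not overlap for 8 members, or 24.2%, against 25.4% of all genes, so that share was close to the background. Those 8 were Nr3c1, Nr2f2 and Rarb, with every HKO library above every flox library (12.8% of all genes), and Hnf4a, Nr1i2, Nr2f6, Esrra and Onecut1, with every HKO library under every flox library (12.6% of all genes). The median log2 fold change of the members was -0.05, against -0.02 over all genes tested. In whole liver, fewer cells of a type and less RNA per cell cannot be told apart.

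**Figure D1:**
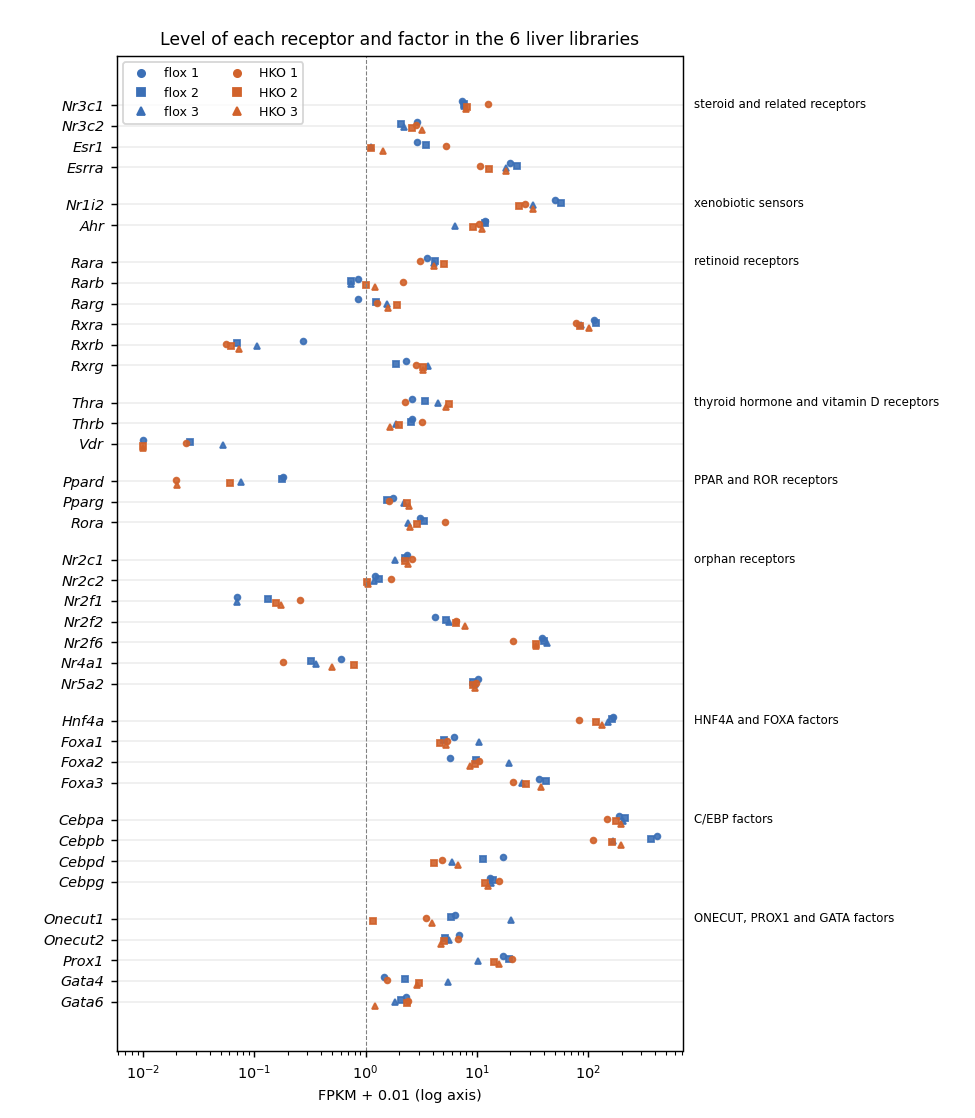
Level of each of the 38 members in each library, as FPKM + 0.01 on a log axis, grouped by role; circles, squares and triangles are libraries 1, 2 and 3, blue for flox and orange for HKO, and the dashed line marks 1 FPKM. Levels span from Vdr at under 0.05 FPKM in every library to Cebpb at 109.9 to 412 FPKM.

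**Figure D2:**
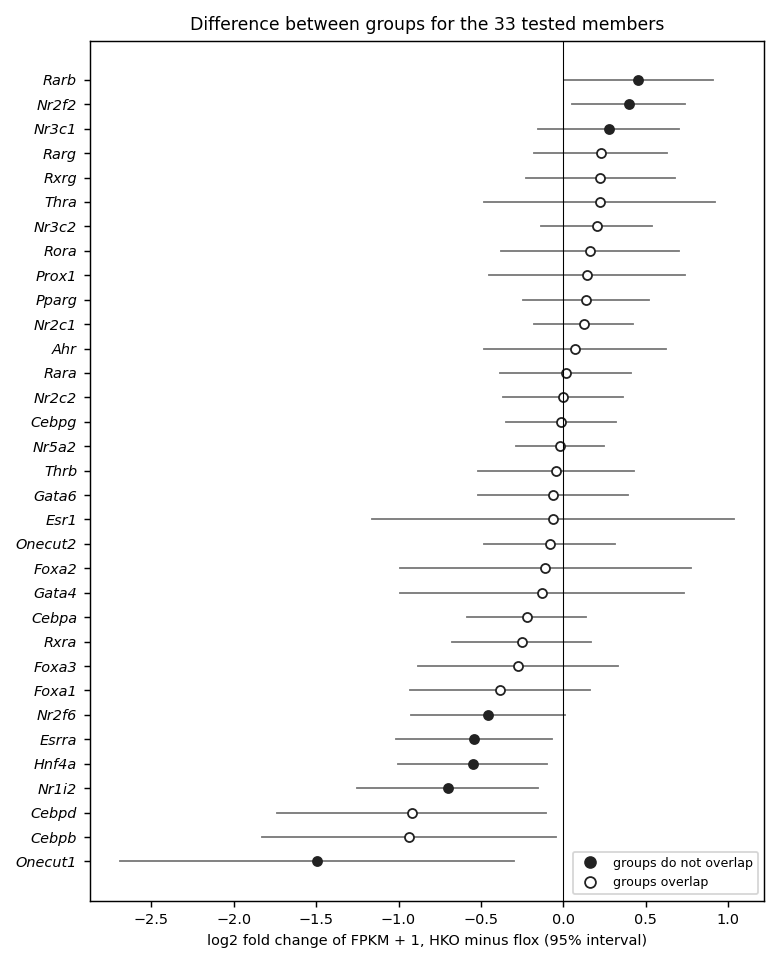
Log2 fold change of FPKM + 1, HKO minus flox, for the 33 members tested, with 95% intervals from limma and the order set by size; filled points are members whose groups of libraries do not overlap. The point estimates run from -1.49 for Onecut1 to 0.45 for Rarb, and no member passed after adjustment.

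The members covered a wide range of abundance. By mean FPKM over the 6 libraries, the order began with Cebpb at 236, Cebpa at 187, Hnf4a at 136 and Rxra at 96.7. Nr1i2 at 37.1, Nr2f6 at 35.1 and Foxa3 at 31.6 came next, then Esrra at 17.1, Prox1 at 16.3 and Cebpg at 13.4. Foxa2, Ahr, Nr5a2, Nr3c1 and Cebpd lay between 8.40 and 10.6 FPKM. The other tested members lay between 1.12 FPKM for Rarb and 6.82 FPKM for Onecut1. Neighbours in this order could overlap: the libraries of Cebpb spanned 109.9 to 412 FPKM, which covers all 6 values of Cebpa.

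HNF4A, an orphan receptor that binds the genes of apolipoproteins, clotting factors and drug-metabolizing enzymes, had a mean in HKO livers of 69.3% of that in flox livers. Hnf4a measured 165, 164 and 151 FPKM in flox libraries 1 to 3 and 83.2, 116 and 133 FPKM in HKO libraries 1 to 3. Each HKO library lay under each flox library, and HKO library 1 was the lowest. The difference on the log2 scale was -0.55 with a standard error of 0.193, and it did not pass (limma BH adjusted p = 0.216). Without HKO library 1 it was -0.36, with a limma BH adjusted p of 0.259. Between 6266 and 12538 reads per library stood behind these values. A long noncoding gene on the opposite strand, Hnf4aos, overlaps Hnf4a, and no source used here states the strand setting of the counting. Hnf4aos averaged 3.51 ± 0.576 FPKM in flox and 3.82 ± 1.57 FPKM in HKO (SD, n = 3), with a log2 fold change of 0.05.

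Hnf4a has more than 1 annotated start, and gene-level values do not tell their transcripts apart. The sequence ahead of its upstream start is shown because a motif of another member lies in it. RefSeq gives the window on GRCm38.p6, plus strand, and the stretch that an annotated exon may cover was left off. Capitals mark a match to ATCAAT or its reverse complement, the core bound by ONECUT factors.
Hnf4a, upstream start, chr2:163506607-163506807: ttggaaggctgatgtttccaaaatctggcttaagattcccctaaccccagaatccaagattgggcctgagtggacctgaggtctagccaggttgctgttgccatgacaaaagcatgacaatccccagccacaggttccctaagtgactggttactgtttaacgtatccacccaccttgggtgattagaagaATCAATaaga
The window held 1 match, which begins 59 bases before the start at 163506857, and 5.81% of the same stretch in 32851 RefSeq promoter windows held one on either strand. The ONECUT motif was in the 250-base windows of 4 members, or 12.9% of the 31 with a window, against 6.72% of all windows. A member counted once if any of its windows matched, and a gene can have more than 1 window. The share of members can therefore exceed the share of windows for that reason alone. A match describes the letters only. The values of Onecut1 and Onecut2 are given with their family below.

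The 3 FOXA factors, which open chromatin at liver genes, overlapped between groups. Foxa3 measured 36.4, 42.1 and 25.4 FPKM in flox and 20.9, 27.4 and 37.4 FPKM in HKO. Foxa2 measured 5.70, 9.75 and 19.5 FPKM in flox, a range of values that encloses the 3 HKO values of 10.5, 9.62 and 8.64 FPKM. Foxa1 measured 6.27, 5.07 and 10.5 FPKM in flox and 5.39, 4.70 and 5.29 FPKM in HKO. Flox library 3 was thus the highest of its group for Foxa1 and Foxa2 and the lowest for Foxa3. The log2 fold changes were -0.28 for Foxa3, -0.11 for Foxa2 and -0.38 for Foxa1. For Foxa2 the sign turned to 0.31 when flox library 3 was left out.

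Among 13 known HNF4A target genes, all of them tested, 6 had the higher mean in HKO and 7 in flox, and 0 passed. Their median log2 fold change was -0.01, against -0.02 for all genes. Apoa1, the main protein of high-density lipoprotein, measured 10222, 12075 and 9875 FPKM in flox and 3298, 8145 and 9024 FPKM in HKO. Its groups did not overlap, and it did not pass, with a log2 fold change of -0.78 and a limma BH adjusted p of 0.342. Ttr, which encodes the thyroid hormone carrier transthyretin, averaged 3813 ± 591 FPKM in flox and 3763 ± 247 FPKM in HKO.

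C/EBP factors are leucine zipper proteins that bind as pairs, with C/EBP-alpha sustaining hepatocyte metabolism and C/EBP-beta and C/EBP-delta known from the acute phase and fasting responses. In the main scaling all 4 genes had the higher mean in flox, but Cebpg had the higher mean in HKO under quantile scaling, TPM and voom on the sum of reads. Cebpb measured 412, 366 and 165 FPKM in flox and 109.9, 162 and 198 FPKM in HKO. Flox libraries 1 and 2 stood above the other 4 libraries, and flox library 3 lay within the HKO values. The fold change was -0.94 on the log2 scale with a standard error of 0.379 and a limma BH adjusted p of 0.271. Cebpd had the same arrangement at a lower level, with 17.2, 11.4 and 5.97 FPKM in flox and 4.89, 4.13 and 6.73 FPKM in HKO. Its log2 fold change was -0.92 with a standard error of 0.346 and a limma BH adjusted p of 0.242. Without flox library 3 the changes were -1.34 for Cebpb and -1.29 for Cebpd, with limma BH adjusted p-values of 0.0875 and 0.0820. Without flox library 1 they were -0.69 and -0.60.

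Cebpa varied less between libraries than Cebpb. Cebpa measured 187, 213 and 203 FPKM in flox and 148, 177 and 195 FPKM in HKO, with a log2 fold change of -0.22 and a 95% interval from -0.58 to 0.14. Cebpg, whose product pairs with other C/EBP and ATF proteins, measured 13.0, 13.9 and 13.3 FPKM in flox and 15.8, 11.7 and 12.7 FPKM in HKO. Its log2 fold change was -0.01, with a 95% interval from -0.35 to 0.32. The balance of C/EBP-beta to C/EBP-alpha transcripts was 2.20, 1.72 and 0.813 in flox and 0.744, 0.917 and 1.01 in HKO, as a ratio of FPKM. It overlapped between groups (2-sided exact permutation p = 0.3). Markers of Kupffer cells, which also use C/EBP factors, summed to 135 to 201 FPKM over 8 genes in flox and 139 to 243 FPKM in HKO, none of them at 0 in all libraries.

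Of 9 known C/EBP target genes, all tested, 5 had the higher mean in HKO and 4 in flox, and 0 passed. Their median log2 fold change was 0.09. Alb, which encodes serum albumin, averaged 28517 ± 3175 FPKM in flox and 36341 ± 3215 FPKM in HKO, with no overlap and a limma BH adjusted p of 0.316. Hp, the gene of the acute phase protein haptoglobin, averaged 3691 ± 1184 and 3912 ± 544 FPKM. A further pair of genes was chosen after their values were seen. G6pc, the glucose-6-phosphatase of glucose release, measured 328, 336 and 314 FPKM in flox and 101, 63.5 and 192 FPKM in HKO. With a log2 fold change of -1.59 it did not pass (limma BH adjusted p = 0.0997), but it passed without HKO library 3, at 0.0386. Saa3, an acute phase serum amyloid, measured 12.5, 15.3 and 12.1 FPKM in flox and 6.59, 6.26 and 10.5 FPKM in HKO, with a limma BH adjusted p of 0.152.

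ONECUT1, also called HNF6, and ONECUT2 are homeodomain factors of bile duct and hepatocyte development, and the values of their genes were arranged differently here. Onecut1 measured 6.32, 5.80 and 20.3 FPKM in flox and 3.46, 1.17 and 3.91 FPKM in HKO. The groups did not overlap, flox library 3 was more than 3 times every other library, and HKO library 2 rested on 39 reads. The log2 fold change was -1.49 with a standard error of 0.504, and it did not pass (limma BH adjusted p = 0.210). Without flox library 3 it was -0.96, with a limma BH adjusted p of 0.235. Onecut2 measured 6.96, 5.13 and 5.61 FPKM in flox and 6.82, 5.04 and 4.73 FPKM in HKO, with a log2 fold change of -0.08. The ratio of Onecut1 to Onecut2 was 0.909, 1.13 and 3.62 in flox and 0.507, 0.231 and 0.827 in HKO, with no overlap (2-sided exact permutation p = 0.1, the smallest that 3 against 3 can give).

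Cholangiocytes, the cells of bile ducts, are known to express ONECUT1. Their 8 markers summed to 29.9 to 43.3 FPKM in flox and 26.9 to 30.7 FPKM in HKO, and none was at 0 in all libraries. Only 2 of the 8 were tested, and 0 passed. Spp1, by far the most abundant of them and named after its values were seen, averaged 29.2 FPKM in flox and 20.2 FPKM in HKO, with no overlap and a limma BH adjusted p of 0.163. The part of these cells in the Onecut1 values was not tested.

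The sequence ahead of the Onecut1 start is shown because Onecut1 had the largest fold change of the set. It comes from RefSeq on GRCm38.p6, plus strand, and ends at the base before the start at 74861921. Capitals mark CACGTG, the palindromic E-box bound by clock and MYC family factors.
Onecut1, chr9:74861671-74861920: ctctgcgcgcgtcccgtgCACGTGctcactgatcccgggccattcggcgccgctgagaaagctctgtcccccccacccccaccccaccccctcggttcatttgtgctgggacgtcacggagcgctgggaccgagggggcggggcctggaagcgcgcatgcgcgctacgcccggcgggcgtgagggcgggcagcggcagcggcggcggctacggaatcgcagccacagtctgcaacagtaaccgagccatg
The E-box lies 232 bases before the start, and 6.02% of the 32851 windows held one. The ONECUT motif spelled out for Hnf4a was not in this window.

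PROX1, a homeodomain factor that represses bile acid synthesis genes, showed no separation. Prox1 measured 17.1, 19.5 and 10.1 FPKM in flox and 20.8, 14.3 and 15.7 FPKM in HKO, with a log2 fold change of 0.14. GATA4 is known in liver endothelium and in hepatocytes of the developing liver. Gata4 measured 1.47, 2.25 and 5.46 FPKM in flox and 1.55, 3.03 and 2.88 FPKM in HKO, so that flox library 3 was again the highest. Gata6 measured 2.30, 2.07 and 1.83 FPKM in flox and 2.42, 2.34 and 1.21 FPKM in HKO. Log2 fold changes were -0.13 for Gata4 and -0.06 for Gata6. Markers of sinusoidal endothelium summed to 28.9 to 39.4 FPKM in flox and 32.6 to 41.2 FPKM in HKO over 10 genes, and their part in the GATA values was not tested.

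PXR, encoded by Nr1i2, is the receptor for drugs, bile acids and other foreign compounds that induces cytochrome P450 3A genes. Nr1i2 measured 50.7, 57.3 and 31.9 FPKM in flox and 27.3, 23.9 and 31.6 FPKM in HKO. Flox libraries 1 and 2 were the highest, and the gap between flox library 3 and HKO library 3 was under 1 FPKM. The log2 fold change was -0.70 with a standard error of 0.233, and the limma BH adjusted p of 0.198 was the lowest of all members. It stayed above the threshold in every alternative run, from 0.0762 without flox library 3 to 0.476 without flox library 2.

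The sequence ahead of Nr1i2 is shown because Nr1i2 had the lowest p of the set and FOXA sites lie in it. It is from RefSeq on GRCm38.p6, minus strand, and ends 26 bases before the start at 38294824. Capitals mark GCAAACA, the reverse complement of TGTTTGC, a core bound by forkhead factors.
Nr1i2, chr16:38294850-38295074: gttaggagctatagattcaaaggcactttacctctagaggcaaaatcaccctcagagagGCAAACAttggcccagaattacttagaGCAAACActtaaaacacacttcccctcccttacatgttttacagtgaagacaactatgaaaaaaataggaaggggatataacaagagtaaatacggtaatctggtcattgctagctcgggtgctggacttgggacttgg
There were 2 matches, 191 and 164 bases before the start, and 3.9% of the same stretch in all windows held at least 1 on either strand. In the full 250 bases, TGTTTGC was found in 4 of the 31 members with a RefSeq window, or 12.9%, namely Esr1, Nr1i2, Prox1 and Rarb, against 4.3% of all windows. Each member counted once over all its windows, so the share of members and the share of windows are not like for like.

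Known PXR target genes were split in direction. Of 12 such genes, 11 were tested, 8 had the higher mean in HKO and 3 in flox, and 0 passed, with a median log2 fold change of 0.14. Cyp3a11, the classical target, varied most within flox at 896, 165 and 1385 FPKM, against 1423, 1055 and 726 FPKM in HKO. Gstm1, a glutathione transferase, averaged 656 ± 171 FPKM in flox and 858 ± 165 FPKM in HKO. A pair was chosen after their values were seen. Slco1a4, an uptake transporter, measured 8.62, 4.33 and 8.79 FPKM in flox and 40.7, 25.0 and 16.2 FPKM in HKO, with a log2 fold change of 1.74 and a limma BH adjusted p of 0.0911. Aldh1a1, a retinaldehyde dehydrogenase, measured 379, 286 and 262 FPKM in flox and 677, 573 and 505 FPKM in HKO, with a log2 fold change of 0.93 and a limma BH adjusted p of 0.0854. Every HKO library lay above every flox library for both, and Aldh1a1 passed with limma voom on the sum of reads, at 0.0433.

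AHR, the aryl hydrocarbon receptor, is a basic helix-loop-helix sensor of dioxins and tryptophan products rather than a nuclear receptor. Ahr measured 11.9, 11.9 and 6.30 FPKM in flox and 10.4, 9.18 and 11.2 FPKM in HKO, and flox library 3 was the only library under 9 FPKM. The log2 fold change was 0.07. Of 8 known AHR targets, 4 were tested, and all 4 had the higher mean in HKO, with 0 passing and a median of 0.35. Cyp1a2, an abundant P450 of hepatocytes around the central vein, measured 516, 551 and 488 FPKM in flox and 672, 783 and 655 FPKM in HKO. Its groups did not overlap, with a log2 fold change of 0.44 and a limma BH adjusted p of 0.191. Ugt1a6a, a glucuronidation enzyme, averaged 8.10 ± 0.740 and 9.52 ± 2.94 FPKM.

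Among the steroid and related receptors, the glucocorticoid receptor gene Nr3c1 measured 7.28, 7.66 and 7.68 FPKM in flox and 12.6, 8.08 and 7.93 FPKM in HKO. The groups did not overlap, but HKO libraries 2 and 3 lay within 1 FPKM of flox. The log2 fold change was 0.27, with a limma BH adjusted p of 0.475, and it was 0.08 without HKO library 1. The mineralocorticoid receptor gene Nr3c2 averaged 2.38 ± 0.425 FPKM in flox and 2.88 ± 0.303 FPKM in HKO. Esr1, the estrogen receptor alpha gene, measured 2.87, 3.47 and 1.10 FPKM in flox and 5.23, 1.10 and 1.43 FPKM in HKO, so that the HKO libraries spread more widely than the flox libraries. Its log2 fold change of -0.07 had a 95% interval from -1.16 to 1.03, the widest after that of Onecut1. Of 11 known glucocorticoid receptor targets, 10 were tested, 5 had the higher mean in each group, and 0 passed, with a median of -0.09. Tat, the tyrosine aminotransferase gene, measured 1888, 1708 and 468 FPKM in flox and 578, 427 and 803 FPKM in HKO, so that flox library 3 lay among the HKO libraries as it did for Cebpb and Cebpd. Mt1, a metallothionein gene, averaged 419 ± 172 and 409 ± 107 FPKM.

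ERR-alpha, encoded by Esrra, is an orphan receptor of mitochondrial and oxidative genes. Esrra measured 19.9, 22.7 and 18.3 FPKM in flox and 10.6, 12.9 and 18.2 FPKM in HKO. HKO library 3 was level with flox library 3, while HKO libraries 1 and 2 were the lowest. The log2 fold change was -0.54 with a standard error of 0.201 and a limma BH adjusted p of 0.236. Trmt112, which overlaps Esrra on the opposite strand, averaged 31.0 ± 4.61 FPKM in flox and 32.8 ± 1.60 FPKM in HKO.

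RAR-beta, one of the 3 retinoic acid receptors, is itself a known retinoic acid target through an element near one of its starts. Rarb measured 0.853, 0.724 and 0.727 FPKM in flox, from 38 to 52 reads, and 2.18, 1.01 and 1.22 FPKM in HKO, from 69 to 132 reads. Every HKO library was above every flox library, and HKO library 1 was the highest. With HKO over flox, the log2 fold change was 0.45 with a standard error of 0.192 and a limma BH adjusted p of 0.288. The flox mean of 0.768 FPKM lay under the limit for testing, so Rarb was tested only through its HKO level. Without HKO library 1 the change was 0.26.

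The element is shown because it is the textbook response element of this gene. RefSeq places it at chr14:16575509-16575533, minus strand of GRCm38.p6, and capitals mark the match to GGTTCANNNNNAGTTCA, a direct repeat of the receptor half-site with a 5-base spacer.
Rarb: gaagGGTTCACCGAAAGTTCActcg
It lies 53 bases before the start at 16575476. This pattern was found on either strand in 2 of 32851 windows of 250 bases, or 0.00609%. Its fixed letters are those of the known Rarb element, so the match at Rarb was set in advance and is no finding. The whole 250-base window lies in an annotated exon of another transcript, so only the element and its flanks are printed. The half-site AGGTCA alone was in 6 of the 31 members with a window, or 19.4%, namely Nr5a2, Pparg, Rarg, Rxra, Rxrg and Thrb, against 14% of all windows. Other motifs searched, TTGCNNAA of C/EBP factors and AGATAA of GATA factors, were in 25.8% and 12.9% of these members, against 9.56% and 9.99% of all windows. The E-box was in 9.68% of these members, against 6.02% of all windows. In all these shares a member counted once over all its windows, so they are not like for like with shares of single windows. The motifs were searched on both strands, and no printed base belongs to more than 1 of them.

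The other retinoid receptors overlapped between groups. Rxra, the main partner of the liver's receptors, measured 112, 118 and 86.1 FPKM in flox and 77.5, 84.3 and 102 FPKM in HKO, with a log2 fold change of -0.25 and a 95% interval from -0.67 to 0.17. Rara averaged 3.95 ± 0.357 FPKM in flox and 4.06 ± 0.992 FPKM in HKO. Rarg averaged 1.21 ± 0.353 and 1.58 ± 0.325 FPKM, and Rxrg 2.59 ± 0.918 and 3.11 ± 0.266 FPKM. Their log2 fold changes were 0.01, 0.23 and 0.22. Rxrb was listed at 0.0460 to 0.267 FPKM, from 7 to 41 reads per library.

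Of 8 genes of retinoic acid response and retinoid metabolism, 5 were tested, 3 had the higher mean in HKO and 2 in flox, and 0 passed. Dhrs3, which reduces retinaldehyde, averaged 34.8 ± 11.8 and 33.3 ± 6.04 FPKM, and the transglutaminase gene Tgm2 33.2 ± 4.54 and 27.7 ± 4.79 FPKM. Cyp26a1, the enzyme that degrades retinoic acid, was chosen after its values were seen. It measured 0.334, 0.892 and 2.10 FPKM in flox and 4.54, 1.82 and 2.98 FPKM in HKO, with a log2 fold change of 1.0 and a limma BH adjusted p of 0.226. Stellate cells store retinoids and express RAR-beta and COUP-TFII. Their 11 markers summed to 28.8 to 55.3 FPKM in flox and 57.4 to 69.4 FPKM in HKO, without overlap. Dcn, the most abundant of them, did overlap, with 33.1, 17.1 and 37.1 FPKM in flox and 46.5, 39.6 and 33.4 FPKM in HKO. Taken singly, 0 of the 8 markers tested were without overlap, against 25.4% of all genes. All 8 stellate markers tested had the higher mean in HKO, 0 passed, and none of the 11 was at 0 in all libraries. Of those not tested, Ngfr had the higher mean in HKO, and Des and Hhip had it in flox. Their part in the values of Rarb, Rarg and Nr2f2 was not tested.

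Thyroid hormone receptors were read at low levels. Thra measured 2.61, 3.38 and 4.44 FPKM in flox and 2.24, 5.65 and 5.30 FPKM in HKO, and Thrb, the main isoform gene of hepatocytes, 2.63, 2.53 and 1.87 FPKM in flox and 3.22, 1.99 and 1.65 FPKM in HKO. Log2 fold changes were 0.22 and -0.05. Nr1d1, which overlaps the end of Thra on the opposite strand, measured 15.5, 29.9 and 24.4 FPKM in flox and 18.5, 66.5 and 38 FPKM in HKO, and like Thra it was lower in library 1 than in libraries 2 and 3 of both groups. Whether the genes share reads was not tested. Of 7 thyroid hormone receptor targets, 6 were tested, 2 had the higher mean in HKO and 4 in flox, and 0 passed, with a median of -0.36. Thrsp, a gene of fat synthesis, varied from 70.6 to 383 FPKM within flox and from 82.2 to 283 FPKM within HKO. Dio1, the deiodinase that activates thyroid hormone, averaged 132 ± 40.9 and 78.1 ± 35.2 FPKM, with a limma BH adjusted p of 0.335. Gpd2, a mitochondrial glycerol phosphate dehydrogenase chosen after its values were seen, measured 8.78, 7.83 and 9.08 FPKM in flox and 5.72, 4.34 and 5.33 FPKM in HKO, with a limma BH adjusted p of 0.0865.

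The vitamin D receptor gene Vdr was nearly absent, with 0, 1 and 3 reads in flox and 1, 0 and 0 reads in HKO. No difference could be seen at that depth.

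PPAR-gamma is the fat-storage receptor of adipose tissue and PPAR-delta a receptor of fatty acid oxidation. Pparg averaged 1.84 ± 0.342 FPKM in flox and 2.14 ± 0.449 FPKM in HKO, with a log2 fold change of 0.14. Ppard had 18, 15 and 7 reads in flox and 1, 6 and 1 reads in HKO. Ppard and Rxrb both lie on chromosome 17 in stretches with low values. Within 250 kb of Rxrb 6 of 30 other coding genes, or 20%, reached a mean of 1 FPKM, and within 250 kb of Ppard 1 of 9, or 11.1%, against 42.8% of all 22002 coding genes. Genes that most cells use were near 0 there, with means of 0.225 FPKM for Brd2 and 0.163 FPKM for Vps52 beside Rxrb and 0.538 FPKM for Srpk1 beside Ppard. The levels of Rxrb and Ppard may therefore not be reliable, and the cause was not tested. A low share of neighbours was not particular to Rxrb and Ppard. It was 2 of 10, or 20%, near Gata4 and 3 of 13, or 23.1%, near Nr4a1.

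Of 10 known PPAR-gamma or PPAR-delta targets, 6 were tested, 1 had the higher mean in HKO and 5 in flox, with a median log2 fold change of -1.35. Plin4, which coats lipid droplets, was the 1 that passed and fell in HKO. It measured 6.76, 5.17 and 4.36 FPKM in flox and 0.674, 0.387 and 1.28 FPKM in HKO, with a log2 fold change of -1.87 and a limma BH adjusted p of 0.0345. It did not pass without a filter, with the replicate block, or without flox library 1 or 2 or HKO library 1 or 2, and its adjusted p ranged from 0.0204 to 0.151 over the alternatives. The HKO mean of 0.780 FPKM lay under the limit for testing, so Plin4 was tested only through its flox level. Plin2, another droplet coat gene, measured 490, 212 and 323 FPKM in flox and 79.2, 98.6 and 158 FPKM in HKO, with no overlap and a limma BH adjusted p of 0.0997. Fabp4, a fatty acid carrier, averaged 5.84 ± 2.69 and 4.45 ± 1.49 FPKM. Many genes on this list are also known targets of PPAR-alpha, which is not among the 38.

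ROR-alpha activates genes of the circadian loop and of lipid metabolism. Rora measured 3.08, 3.32 and 2.40 FPKM in flox and 5.19, 2.87 and 2.49 FPKM in HKO, with HKO library 1 the highest and a log2 fold change of 0.16. Of 4 known targets 2 were tested. Nfil3, a leucine zipper repressor of the clock output, passed and fell in HKO, from 4.36, 5.23 and 5.88 FPKM in flox to 1.90, 2.0 and 1.82 FPKM. Its log2 fold change was -1.08 with a limma BH adjusted p of 0.0372, which ranged from 0.0224 to 0.148 over the alternatives. It did not pass without a filter, with the replicate block or without any 1 of the 6 libraries. Nr1d1, whose values are given beside Thra, had a log2 fold change of 0.67 and did not pass. The hour of collection is not given, and its part in these clock genes was not tested.

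Orphan receptors split in both directions. COUP-TFII, encoded by Nr2f2, is a repressor found in venous endothelium, mesenchyme and hepatocytes that can occupy HNF4A sites. Nr2f2 measured 4.19, 5.28 and 5.65 FPKM in flox and 6.42, 6.47 and 7.88 FPKM in HKO. Each HKO library lay above each flox library, and the log2 fold change was 0.39 with a standard error of 0.147 and a limma BH adjusted p of 0.238. Nr2f1, which encodes COUP-TFI, had 4, 7 and 4 reads in flox and 16, 11 and 10 reads in HKO. Nr2f6, another relative, measured 38.6, 40.1 and 42.6 FPKM in flox and 21.3, 33.8 and 34.2 FPKM in HKO, without overlap and with a log2 fold change of -0.46. Its limma BH adjusted p was 0.300, and without HKO library 1 the change was -0.24.

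The ratio of Hnf4a to Nr2f2 FPKM was 39.4, 31.1 and 26.7 in flox and 13.0, 18.0 and 16.9 in HKO, or 32.4 ± 6.41 against 16.0 ± 2.65 (SD, n = 3). It did not overlap between groups (2-sided exact permutation p = 0.1, BH adjusted 0.175 over 7 ratios), and 3 against 3 cannot give a p under 0.1. Hnf4a was lower and Nr2f2 higher in every HKO library than in every flox library. Their ratio therefore had to separate the groups, and it adds no support. The 7 ratios were chosen after the values were seen.

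NR5A2, or LRH-1, a receptor of bile acid and cholesterol genes, had the smallest standard error of the tested members, 0.114. Nr5a2 measured 10.2, 9.20 and 9.54 FPKM in flox and 9.84, 9.15 and 9.51 FPKM in HKO, a log2 fold change of -0.02 with a 95% interval from -0.29 to 0.24. Of its 6 known targets, all tested, 3 had the higher mean in HKO and 3 in flox, and 0 passed. Cyp8b1, the sterol 12-alpha-hydroxylase, averaged 244 ± 68.4 FPKM in flox and 188 ± 44.0 FPKM in HKO, and Cyp7a1, which starts bile acid synthesis, 45.1 ± 13.9 and 59.4 ± 28.1 FPKM. The testicular receptors Nr2c1 and Nr2c2 averaged 2.15 ± 0.273 and 1.23 ± 0.0736 FPKM in flox and 2.42 ± 0.162 and 1.25 ± 0.383 FPKM in HKO. Nr4a1, an immediate early gene, had 48, 22 and 29 reads in flox and 14, 73 and 37 reads in HKO.

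Libraries of a group also differed from one another in these genes. Within flox, the median coefficient of variation was 17.7% over the 33 tested members and 13.4% over all genes. The median absolute log2 distance of flox library 3 from the mean of the other 2 flox libraries was 0.303 for members and 0.186 for all genes. For HKO library 1 the same distance was 0.408 for members and 0.276 for all genes. Compared with flox libraries 1 and 2, flox library 3 was over 1 log2 unit higher for Onecut1 at 1.59, Foxa2 at 1.28 and Gata4 at 1.19, and over 1 log2 unit lower for Cebpb at -1.23 and Cebpd at -1.11. In HKO library 1 the largest distances from HKO libraries 2 and 3 were 1.46 for Esr1 and -1.0 for Thra.

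**Figure D3:**
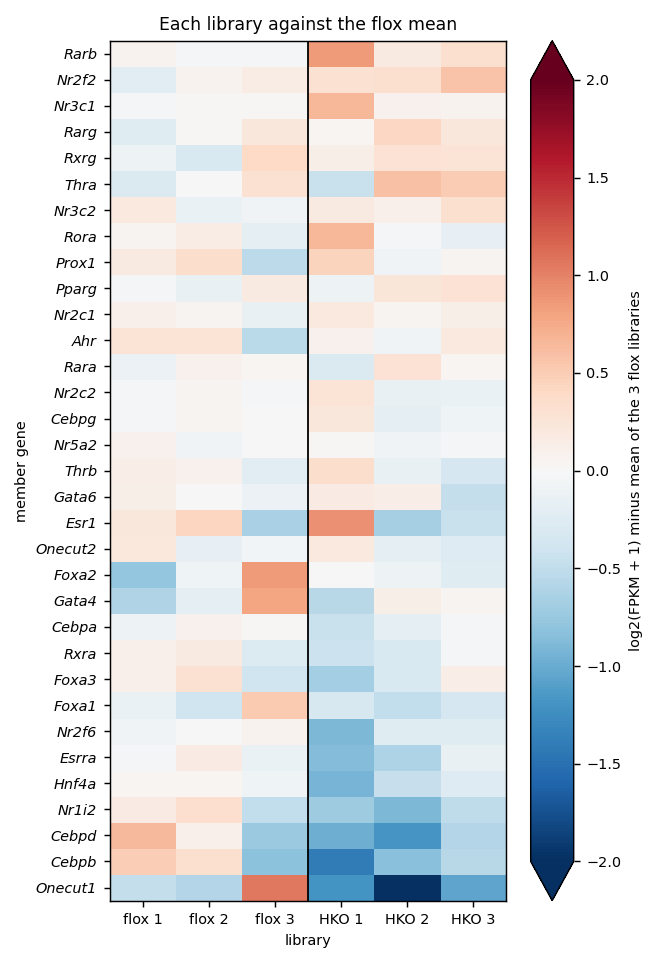
Each tested member in each library as log2(FPKM + 1) minus the mean of the 3 flox libraries, red for higher and blue for lower, with members ordered by fold change and the colour scale ending at 2 log2 units either way. Flox library 3 departs from flox libraries 1 and 2 in both directions, higher for Onecut1 and lower for Cebpb, and HKO library 1 holds the strongest colours for Rarb, Esr1 and Hnf4a.

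Leaving out 1 library at a time kept the sign of the fold change for the 8 members whose groups did not overlap and for Cebpb and Cebpd, and 0 of them passed in any of these fits. The change of Onecut1 ranged from -1.79 to -0.96, that of Nr1i2 from -0.95 to -0.54 and that of Hnf4a from -0.70 to -0.36. The sign of the first 8 is fixed by the lack of overlap and adds no support.

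**Figure D4:**
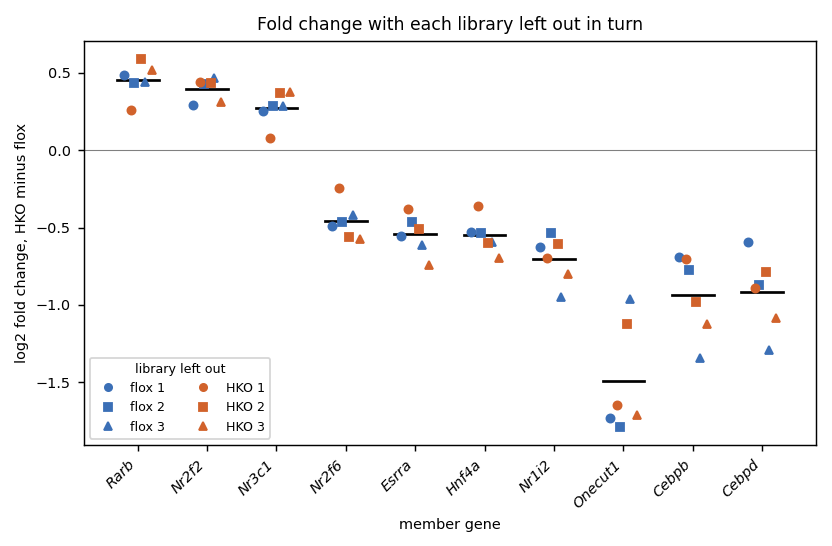
Log2 fold change of FPKM + 1, HKO minus flox, for 10 members, with all 6 libraries as a black bar and with each library left out in turn as a symbol. HKO library 1 draws Nr3c1 from 0.27 to 0.08 when removed, and flox library 3 draws Cebpb from -0.94 to -1.34 when removed.

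The proteins that receptors work with also gave no call. Of 16 coregulators, 15 were tested, 4 had the higher mean in HKO and 11 in flox, and 0 passed, with a median log2 fold change of -0.04. Nr0b2, the corepressor SHP, averaged 28.8 ± 8.79 FPKM in flox and 18.7 ± 14.0 FPKM in HKO, and the histone deacetylase gene Hdac3 16.4 ± 1.12 and 19.3 ± 1.10 FPKM. The corepressor gene Ncor1, chosen after its values were seen, lay lower in every HKO library than in every flox library. Ncor1 measured 9.09, 8.26 and 8.66 FPKM in flox and 7.12, 6.05 and 6.49 FPKM in HKO, with a limma BH adjusted p of 0.196. Among the partner and chaperone genes of AHR and the steroid receptors, 5 of 7 were tested and 0 passed. At an unadjusted limma p under 0.05 there were 2 of 15 coregulators and 0 of 5 partners tested, against 17% of all genes. The counts were 2 of 11 PXR, 2 of 4 AHR, 1 of 10 glucocorticoid and 1 of 6 thyroid hormone targets. Retinoid genes had 1 of 5, NR5A2 0 of 6, HNF4A 2 of 13 and C/EBP 2 of 9, and stellate markers 0 of 8. Outside the cell type markers, the PPAR target list had the largest share, with 5 of 6 tested genes or 83.3%. It had 1 higher and 4 lower, and the ROR-alpha target list had 1 of 2. Red cell markers had 5 of 5, all lower, and T and NK cell markers 3 of 4, all higher. The chaperone Hsp90ab1 averaged 314 ± 39.9 and 259 ± 30.4 FPKM and the cochaperone Fkbp4 57.7 ± 6.44 and 46.0 ± 11.1 FPKM.

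**Figure D5:**
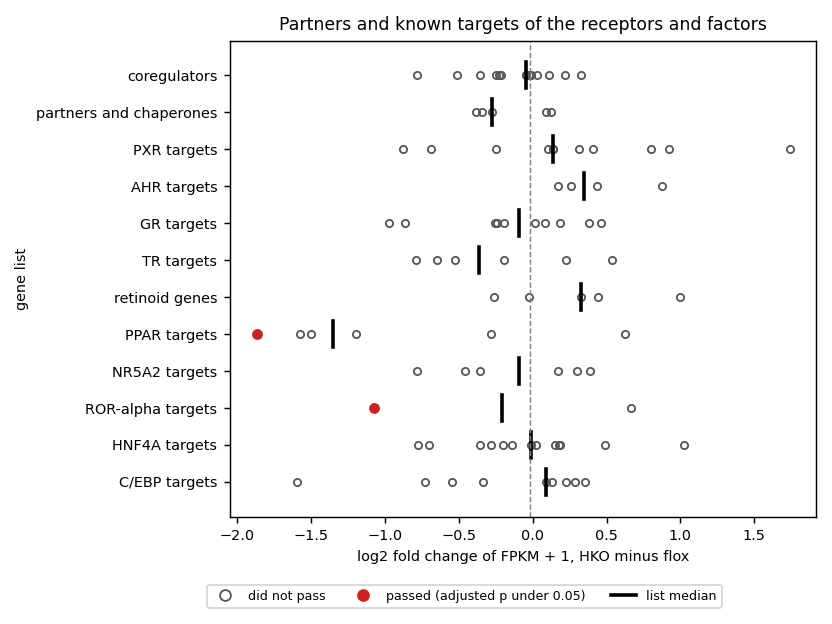
Log2 fold change of FPKM + 1, HKO minus flox, for each tested gene of 12 lists of coregulators, partners and known targets; the black bar is the list median and the dashed line the median of all genes tested at -0.02. The 2 filled points, Plin4 among the PPAR targets and Nfil3 among the ROR-alpha targets, are the list genes that passed.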

How the data were processed

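The authors deposited FPKM for 41838 genes in 6 libraries, with gene lengths. Read pairs came from poly(A) RNA, per the labels. The submitters' processing notes name GRCm38.p6, CASAVA, HISAT2 2.0.5, featureCounts 1.5.0-p3 and DESeq2 1.20.0. Products of FPKM and gene length were whole multiples of 1 step for 100% of values, within 0.001, which gave the reads back. The authors' library size was 0.925 to 1.08 times their sum.

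HKO was compared with flox by limma 3.58.1 (trend and robust, statmod 1.5.0, R 4.3.3) on log2(FPKM + 1), which understates changes of low genes, for genes with a mean of at least 1 FPKM. Figures used Python 3.11.15 and matplotlib 3.10.9. On simulated reads over 10451 genes, HKO minus flox, the test called 53 of 98 genes given a 2-fold change, 99 of 100 given a 4-fold change and 9 of 10253 given none. The simulation drew genes independently and moved the spread of each toward that of the median gene. These counts therefore need not hold for more variable genes, such as many members, or for shifts of a whole library. Ratios were compared by exact permutation. Pairs of libraries of a group differed by a chi-square of 28.3 to 63.0 per degree of freedom, so none was a copy.

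The members and the 21 gene lists were chosen with earlier results of these data known. Named were all members, Alkbh5, and, from the lists other than cell type markers, every gene that passed and the 2 most abundant of each list; others are said to be chosen after their values were seen. RefSeq promoter windows (GRCm38.p6) matched 31 of 38 members. One motif that was searched is not reported here. Alternatives were other pseudocounts, filters, scalings and tests, the replicate block and each library left out.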

Additional observations from a re-analysis of the deposited data

How the results depend on the processing

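No member passed as reported or in any of the 17 alternatives by limma with BH adjustment. The lowest adjusted p was 0.0762, for Nr1i2 without flox library 3. The median-of-ratios scaling is counted as an alternative, but its factor was 1 for every library, so that run repeats the main fit. The members' median log2 fold change moved from -0.05 to -0.25 when only genes with a mean of at least 5 FPKM were kept, where 19 members were tested. Over all genes, the 28 higher and 23 lower calls became 18 higher with a pseudocount of 0.1, 0 higher and 1 lower without a filter, and 78 higher and 42 lower with limma voom on the sum of reads. The same replicate numbers do not pair the mice: their deviations correlated at 0.15, -0.14 and -0.05, and 2 libraries correlated best with their own number. With the replicate block 1 gene was higher and 8 were lower, and no member passed. With 1 library left out, 0 to 29 genes were higher and 1 to 38 lower, and a group of 2 is then assumed to vary like the other. Without flox library 1, flox library 2, HKO library 1 or HKO library 2 at most 1 was higher and at most 2 were lower. The cause of these shifts was not tested.

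Some fold changes turned sign, none of them past the threshold as reported or after turning. On the log2 scale they became Nr2c2 0.0024 with a pseudocount of 5. Quantile scaling gave Nr5a2 0.012, Cebpg 0.038, Dhrs3 0.0093, Ttr 0.16. With TPM they were Thrb 0.0075, Nr2c2 0.050, Nr5a2 0.050, Cebpg 0.061, Dhrs3 0.050, Ttr 0.068, and with voom on the sum of reads Nr2c2 0.056, Nr5a2 0.050, Cebpg 0.060, Dhrs3 0.050, Ttr 0.066. With libraries left out in turn, the members whose sign turned ranged as Ahr -0.20 to 0.21, Cebpg -0.13 to 0.071, Esr1 -0.55 to 0.23, Foxa2 -0.49 to 0.31, Gata4 -0.42 to 0.27, Gata6 -0.17 to 0.14, Nr2c2 -0.14 to 0.071, Nr5a2 -0.053 to 0.017, Onecut2 -0.22 to 0.024, Prox1 -0.12 to 0.32, Rara -0.12 to 0.16, Rora -0.091 to 0.32, Thrb -0.24 to 0.10. The other named genes ranged as Cyp3a11 -0.11 to 1.41, Dhrs3 -0.28 to 0.21, Fabp4 -0.59 to 0.0010, Hnf4aos -0.15 to 0.35, Hp -0.15 to 0.33, Mt1 -0.30 to 0.31, Thrsp -0.35 to 0.86, Ttr -0.14 to 0.090, Ugt1a6a -0.021 to 0.40. Of the comparisons of a member with an alternative, 510 kept their sign and their side of the threshold and 37 turned sign. Those kept include the median-of-ratios run, which could not differ. Depth limits Vdr, Ppard, Rxrb, Nr2f1 and Nr4a1, which had 0 to 73 reads per library.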

Other observations

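The table's own family column names 22 nuclear receptor genes besides the members. Of these, 9 were tested and 0 passed by limma with BH adjustment, with 2 at an unadjusted p under 0.05 and a median log2 fold change of -0.16. Besides the members, 1448 genes have a transcription factor family in that column, the 22 receptors among them. Of the 1448, 546 were tested, and 2 passed as higher and 2 as lower in HKO. Groups did not overlap for 21.6% of those 546, against 24.2% of the members and 25.4% of all genes tested.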
